A study of Mus musculus with 16 samples.

Results

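Liver messenger RNA of mice treated with Semaglutide was compared with that of mice given saline, using 8 of the 16 libraries of the study. The libraries were taken by the treatment in their labels: Semaglutide 11, 15, 31 and 51, and saline control 35, 50, 73 and 78, with the numbers the submitters gave them. All donors were C57BL/6 mice aged 22 weeks with diet-induced obesity and fatty livers, so the saline group is an obese, steatotic control and not a lean one. The remaining groups received Dicretin, an agonist at 2 receptors, GLP1R for glucagon-like peptide-1 and GCGR for glucagon, or a restricted diet that gave a matching loss of weight. Calorie-restricted libraries 7, 8, 52 and 79 are used below for a direct comparison with Semaglutide, and the Dicretin libraries entered only the shared estimate of spread. Dose, duration, diet and sex are not given in the sources used here. The labels number the libraries but do not say that each came from its own animal, so p-values measure the spread between these libraries.

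Semaglutide is a long-acting peptide agonist of GLP1R, a receptor known mainly from pancreatic islets and brain regions that control appetite. In steatosis, hepatocytes take up or make more fatty acids than they burn or export, and store them as triglyceride in lipid droplets coated by perilipins and CIDE proteins. The nuclear receptor PPAR gamma, scarce in lean liver, promotes that storage, while PPAR alpha drives fatty acid oxidation in mitochondria and peroxisomes. The comparison asks which of these and other liver programmes differed after GLP1R agonism with its weight loss, and the calorie-restricted group has a matching loss of weight without the drug.

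Assigned counts ranged from 14.71 to 15.654 M per library in Semaglutide and from 12.144 to 16.361 M in saline. The 10 hepatocyte markers, albumin among them, summed to between 131344 and 161016 CPM (counts scaled to the effective library size) in Semaglutide and between 105278 and 127165 CPM in saline. Library Semaglutide 11 stood apart on the second principal component of the 8 libraries (22.24% of the variance), at 44.3, with its mates between -31.1 and -16.9 and saline between 1.76 and 13.4. Library Semaglutide 15 carried skeletal muscle transcripts, with Acta1 (skeletal actin) at 229 CPM, Tnnt3 at 197 CPM and Ckm at 77.6 CPM, while these 3 genes had no counts in the other 7 libraries. Lpl, which muscle also expresses, was at 84.3 CPM in library 15 and between 11.5 and 23.4 CPM in the others. The part of this muscle RNA in other results was not tested. Results below are given with all 4 Semaglutide libraries, and the fit without library 11 stands beside them. In whole tissue, fewer cells of a type and less RNA per cell cannot be told apart. Values of 4 libraries are listed in the order 11, 15, 31, 51 for Semaglutide, 35, 50, 73, 78 for saline and 7, 8, 52, 79 for calorie restriction, log2 fold changes are Semaglutide minus the other group ± SE, and adjusted p-values were obtained with the quasi-likelihood test of edgeR after Benjamini-Hochberg adjustment over all genes tested.

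The genes called lower in Semaglutide livers included members of the triglyceride storage, peroxisomal fatty acid oxidation, NRF2 target and acute phase lists and 2 metallothioneins, and those called higher included male-biased hepatocyte genes and several endoplasmic reticulum chaperones. Of 12910 genes tested, 539 (4.18%) passed an adjusted p of 0.05, with 201 (1.56%) higher and 338 (2.62%) lower. Among them 73 higher and 217 lower genes differed by at least 2-fold. The shares of 1.56% higher and 2.62% lower are the background for each list count against saline below. Without library 11, 450 genes (3.42%) passed, 160 (1.22%) higher and 290 (2.21%) lower. Both fits called 363 genes, and all 539 kept their sign without library 11. In the 8 fits that each left out 1 library, 220 genes passed every time, 64 higher and 156 lower. Leaving out saline 35 gave 74 higher and 182 lower genes, saline 50 gave 86 and 182, saline 73 gave 96 and 204, and Semaglutide 31 gave 155 and 217. Removing each library's trend with gene length gave 475 higher and 374 lower genes, so that the share of higher calls was 55.9% and not 37.3%.

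**Figure D1:**
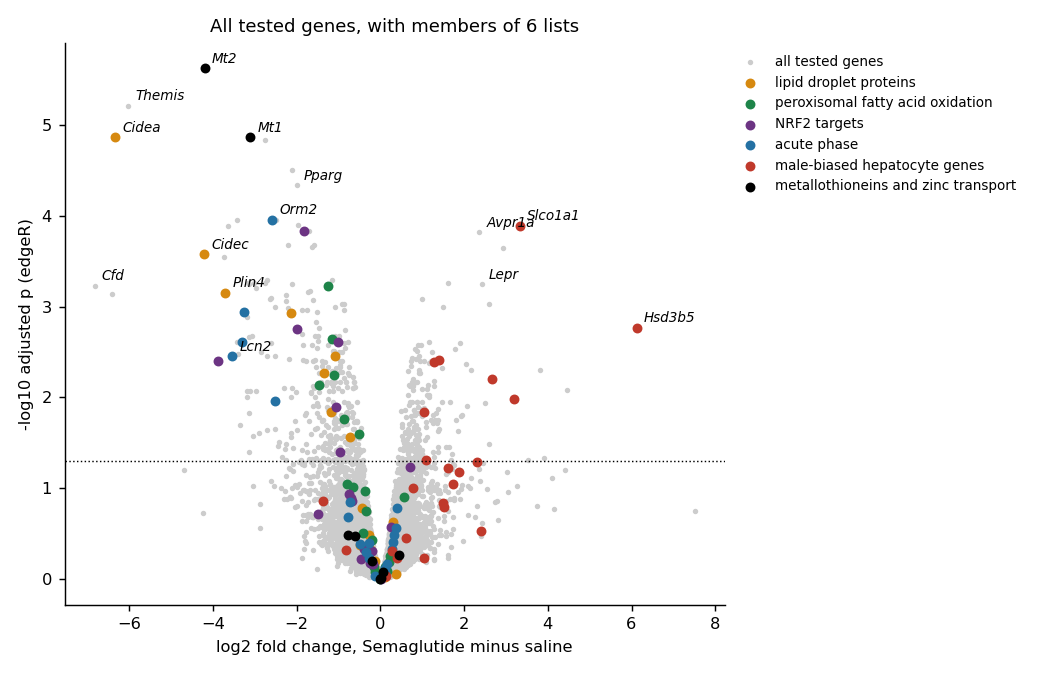
Log2 fold change (x axis, Semaglutide minus saline) against -log10 adjusted p (y axis) for all 12910 tested genes, with members of 6 lists in colour and the dotted line at an adjusted p of 0.05. Cidea and Mt2 lie far to the left and high, Hsd3b5 and Slco1a1 to the right, and most list members that passed are on the left except those of the male-biased list.

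Fatty acid uptake and triglyceride synthesis were represented by 22 tested genes, of which 5 fell and none rose (median log2 fold change -0.28), beside 2.62% of all genes tested lower and a median over all genes of 0.00037. Without library 11 it was also 5, and without libraries 11 and 15 together 3. Pparg, which encodes PPAR gamma (chromosome 6, 115360951 to 115490399, GRCm38), was at 5.85, 8.77, 10.8 and 8.33 CPM in Semaglutide and at 44.2, 31.5, 33.2 and 25.9 CPM in saline. It fell by 2.0 ± 0.22 (adjusted p = 4.6e-05), and every Semaglutide library was below every saline library, a separation found in 14.2% of all genes tested. Cd36, a fatty acid translocase at the cell surface, was at 48.7, 46.9, 38.9 and 34.9 CPM in Semaglutide and 238, 218, 197 and 149 CPM in saline, and fell by 2.24 ± 0.34 (adjusted p = 0.000858). Mogat1, which acylates monoacylglycerol, fell from 7.03, 7.56, 11.0 and 4.47 CPM to 1.35, 0.621, 1.56 and 1.06 CPM (log2 fold change -2.70 ± 0.38, adjusted p = 0.000506). The groups did not overlap for Cd36 or Mogat1 either. Agpat2, which adds the second acyl chain on the way to triglyceride, fell by 0.63 ± 0.13 (adjusted p = 0.00667) with tightly grouped Semaglutide libraries between 134.5 and 146 CPM. Gpat3, an acyltransferase of the first step, fell by 1.27 ± 0.28 (adjusted p = 0.0128), a call that was lost without saline 73 (adjusted p = 0.0527). The gene of the final enzyme, Dgat2, was at 680, 747, 737 and 682 CPM in Semaglutide and 627, 641, 638 and 665 CPM in saline, a log2 fold change of 0.15 ± 0.14 (adjusted p = 0.603).

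Lipid droplet proteins had the largest share of lower genes among the lipid lists: 8 of 19 tested members fell and none rose (median -0.44). Without library 11 it was 7 of 19, without saline 73 it was 6, and without libraries 11 and 15 together 5. Cidea, which with its relative Cidec lets small droplets merge into large ones, was at 0.075, 0.138, 0.130 and 0 CPM in Semaglutide and at 7.81, 9.54, 8.51 and 4.14 CPM in saline (log2 fold change -6.34 ± 0.61, adjusted p = 1.37e-05). Cidec (chromosome 6, 113424634 to 113435760) was at 2.63, 2.42, 3.82 and 1.69 CPM in Semaglutide and at 64.7, 64.6, 47.6 and 19.5 CPM in saline (-4.22 ± 0.53, adjusted p = 0.000264). For both CIDE genes the lowest saline library, 78, remained above all Semaglutide libraries, which the rule for naming the largest changes required. Plin4, a perilipin also abundant in fat cells, was at 1.43, 3.45, 7.78 and 1.57 CPM in Semaglutide and at 63.2, 49.9, 45.8 and 27.8 CPM in saline (-3.71 ± 0.52, adjusted p = 0.000703), and at -4.43 without Semaglutide 31. Plin2, the main droplet coat protein of hepatocytes, was at 350, 269, 322 and 283 CPM against 857, 1049, 698 and 515 CPM (-1.35 ± 0.26, adjusted p = 0.00543). G0s2, an inhibitor of the lipase ATGL, was at 97.7, 59.9, 84.8 and 30.9 CPM against 235, 370, 379 and 214 CPM (-2.13 ± 0.34, adjusted p = 0.00118). Lipe, hormone-sensitive lipase, was at 7.43, 15.8, 14.9 and 14.4 CPM against 27.5, 26.8, 34.5 and 23.4 CPM (-1.09 ± 0.20, adjusted p = 0.0035), with library 11 the lowest of its group. Fitm1, which helps droplets bud from the endoplasmic reticulum, fell by 1.18 ± 0.26 (adjusted p = 0.0145), and its call was lost without Semaglutide 31 or saline 73 (adjusted p = 0.0574 and 0.0606).

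Members of the droplet list that did not pass included the perilipin Plin5 at -0.50 ± 0.32 (adjusted p = 0.424), Plin3 at -0.07 ± 0.15 (adjusted p = 0.848), and Pnpla2, which encodes ATGL, at -0.24 ± 0.17 (adjusted p = 0.48). The calls thus took in droplet fusion, coat and budding genes, the inhibitor G0s2 and the lipase gene Lipe, and not the lipase that G0s2 restrains.

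**Figure D2:**
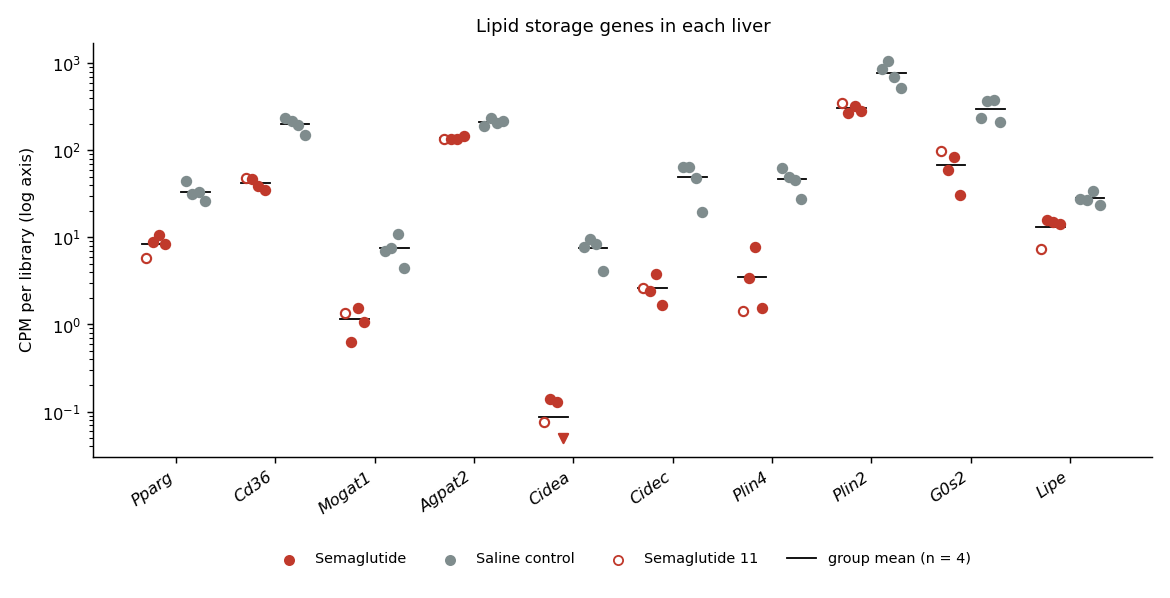
CPM per library on a log axis for 10 genes of fatty acid uptake, triglyceride synthesis and droplets, with red for Semaglutide (open circle: library 11), grey for saline and a bar at the mean of 4 libraries; a triangle at the bottom stands for 0. The groups are separate for all 10 genes, widely for Cidea and Cidec and by less than 2-fold for Agpat2.

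New synthesis and desaturation of fatty acids showed fewer calls: 2 of 20 tested genes fell (median -0.62). It was 4 without Semaglutide 15 and 1 without Semaglutide 31, saline 35 or saline 50. Elovl5, an elongase of polyunsaturated fatty acids, was at 215, 274, 141 and 223 CPM in Semaglutide and 719, 822, 627 and 429 CPM in saline (-1.61 ± 0.33, adjusted p = 0.00742). Fads2, the delta-6 desaturase, was at 150, 454, 177 and 255 CPM against 691, 563, 477 and 506 CPM (-1.11 ± 0.26, adjusted p = 0.0182), and was not called without Semaglutide 31, saline 35 or saline 50 (adjusted p = 0.0687, 0.0757 and 0.0537). Library 15 was the highest Semaglutide library for Fads2 and for its neighbour in the pathway Fads1, the delta-5 desaturase, at 610 CPM against 358 to 385 CPM in its mates. Fads1 itself was not called with all libraries in edgeR (-0.82 ± 0.25, adjusted p = 0.0732). It was called without library 15 (-1.04, adjusted p = 0.0357), by DESeq2 (adjusted p = 0.0291) and with the 2 groups fitted alone (adjusted p = 0.0241). The saline libraries were uneven for the classic lipogenic genes. Scd1, the delta-9 desaturase, was at 6399, 8082, 2432 and 2928 CPM in saline and 1344, 2470, 1007 and 778 CPM in Semaglutide (-1.83 ± 0.97, adjusted p = 0.335), and library 15 overlapped the lowest saline library. Fasn, fatty acid synthase, was at 288, 387, 167 and 103 CPM in saline and 130, 309, 97.4 and 171 CPM in Semaglutide (-0.42 ± 0.96, adjusted p = 0.853). Scd1 passed when the 2 groups were fitted alone (-1.83, adjusted p = 0.0323), and Fasn did not pass under any alternative.

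Peroxisomal fatty acid oxidation fell in 6 of 22 tested genes and rose in none (median -0.29; 6 fell without library 11). The count was 5 without Semaglutide 15, and 4 without Semaglutide 31, saline 35, saline 50 or saline 73. It was also 4 without libraries 11 and 15 together. Pex11a, which acts in peroxisome division, was at 112, 87.5, 107 and 70.1 CPM in Semaglutide against 215, 245, 243 and 143 CPM in saline (-1.17 ± 0.20, adjusted p = 0.00229). The groups did not overlap for Pex11a. Acot3, a peroxisomal thioesterase, fell by 1.47 ± 0.30 (adjusted p = 0.0073). The thiolase Acaa1b fell by 0.86 ± 0.20 (adjusted p = 0.0172), but was not called without Semaglutide 31 or saline 35, 50 or 73 (adjusted p = 0.0508 to 0.0715).

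Targets of PPAR alpha, a list that shares some of these genes, had 5 of 21 lower (median -0.44; 1 without libraries 11 and 15 together). Ucp2, a mitochondrial carrier, was at 18.1, 15.1, 13.2 and 21.5 CPM against 37.2, 48.2, 47.6 and 27.8 CPM (-1.24 ± 0.24, adjusted p = 0.00465), and Acot2, a mitochondrial thioesterase, fell by 1.59 ± 0.33 (adjusted p = 0.00787). Cpt1a, the carnitine transferase that admits fatty acids to mitochondria, was at 212, 432, 372 and 377 CPM against 704, 677, 550 and 522 CPM (-0.82 ± 0.19, adjusted p = 0.0163), and not called without saline 35 or 50 (adjusted p = 0.0684 and 0.0671). It was the single call among 16 mitochondrial oxidation genes (median -0.03). Ppara itself was at 45.5, 90.3, 61.9 and 78.0 CPM against 83.9, 77.6, 57.8 and 72.6 CPM (-0.08 ± 0.23, adjusted p = 0.884). Pdk4, a fasting-induced kinase, reached 10.6 CPM in library 15, while its mates ranged from 1.17 to 2.07 CPM. Against 8.88, 7.10, 5.10 and 2.73 CPM in saline it was called without library 15 (-1.90, adjusted p = 0.0136) and not with it (-0.64, adjusted p = 0.567). Muscle, whose RNA was in library 15, also expresses Pdk4, and its part in this value was not tested.

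Among genes of glucose output, 2 were called lower. G6pc, the glucose-6-phosphatase that releases free glucose (chromosome 11, 101367561 to 101377903), was at 55.5, 57.2, 116 and 82.5 CPM in Semaglutide and at 203, 353, 211 and 275 CPM in saline (-1.74 ± 0.27, adjusted p = 0.0011). Gpt2, the mitochondrial alanine aminotransferase, was at 329, 457, 379 and 405 CPM against 638, 640, 598 and 600 CPM (-0.66 ± 0.13, adjusted p = 0.00788). No library of either gene crossed between groups, and these were the calls among 17 gluconeogenesis genes (2 lower, median -0.18). Pck1, the cytosolic enzyme commonly used as a readout of the pathway, was at 1882, 2570, 1340 and 1448 CPM against 1893, 1286, 2768 and 2162 CPM, with overlapping groups (-0.16 ± 0.22, adjusted p = 0.725). The coactivator Ppargc1a was at -0.03 ± 0.16 (adjusted p = 0.937).

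Bile acid synthesis differed at single enzymes. Cyp8b1, the sterol 12-alpha-hydroxylase that sets the share of cholic acid (chromosome 9, 121914356 to 121916305), was at 32.3, 47.9, 18.6 and 60.1 CPM in Semaglutide and at 397, 434, 411 and 169 CPM in saline (-3.15 ± 0.50, adjusted p = 0.00215). Saline 78 was the lowest of its group and still above every Semaglutide library. Cyp7b1, which belongs to the alternative pathway, was at 252, 265, 222 and 246 CPM against 89.1, 99.8, 77.4 and 142 CPM and rose by 1.27 ± 0.24 (adjusted p = 0.00405). Cyp7a1, the rate-limiting enzyme of the classic pathway, was at 33.2, 94.1, 29.7 and 51.8 CPM against 109, 113, 157 and 101 CPM, and although its groups did not overlap it did not pass (-1.20 ± 0.62, adjusted p = 0.309). Of 15 tested genes of the list, 1 rose and 1 fell (median 0.12), beside 1.56% and 2.62% of all genes tested. In sterol export, Abcg5, a subunit of the transporter that moves cholesterol into bile, was at 148, 182, 183 and 158 CPM against 91.7, 93.8, 97.9 and 114 CPM (0.75 ± 0.15, adjusted p = 0.00754). Its partner Abcg8 was at 143, 226, 200 and 177 CPM against 106, 103, 104 and 139 CPM, and passed without library 11 (0.83, adjusted p = 0.0476) but not with it (0.72 ± 0.22, adjusted p = 0.0752). With library 11 kept, Abcg8 was called by DESeq2 (adjusted p = 0.0309), with the length trend removed (adjusted p = 0.0469) and with the 2 groups fitted alone (adjusted p = 0.0265). None of 24 tested genes of cholesterol synthesis and uptake passed with all libraries in edgeR or in DESeq2 (median -0.37), and 1 was called higher without Semaglutide 31.

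Hepatocyte genes that depend on the male pattern of growth hormone pulses stood out among the higher genes: 8 of 23 tested male-biased genes rose and none fell (median 1.40, and 7 rose without library 11), beside 1.56% of all genes tested higher. Leaving out saline 78 gave 11 calls, saline 35 or 73 gave 6, and libraries 11 and 15 together gave 4. Hsd3b5, a steroid-reducing enzyme (chromosome 3, 98618634 to 98630252), was at 185, 239, 166 and 236 CPM in Semaglutide and at 0.843, 3.61, 0.136 and 7.69 CPM in saline (6.12 ± 0.90, adjusted p = 0.00171), and its log2 fold change was 7.04 without saline 78. Slco1a1, an organic anion transporter (chromosome 6, 141907282 to 141946962), was at 544, 606, 450 and 578 CPM against 39.1, 82.9, 19.3 and 74.1 CPM (3.34 ± 0.40, adjusted p = 0.000129). In both genes the saline libraries spread over a wider range of fold than the Semaglutide libraries, and saline 73 was the lowest. Mup11, one of the major urinary proteins that males secrete as pheromone carriers, was at 1561, 1787, 1010 and 1391 CPM against 110, 298, 171 and 333 CPM (2.66 ± 0.50, adjusted p = 0.00627). Serpina1e, a protease inhibitor of the same class of genes, was at 753, 2438, 697 and 2599 CPM against 209, 164, 156 and 177 CPM (3.20 ± 0.65, adjusted p = 0.0105). Gstp1, a glutathione transferase that is male-biased in mouse liver, was at 1092, 691, 1255 and 838 CPM against 411, 371, 283 and 407 CPM (1.40 ± 0.26, adjusted p = 0.00391). Mup3 and Mup20 also rose (1.04 ± 0.23, adjusted p = 0.0144, and 1.09 ± 0.30, adjusted p = 0.0491), with library 11 the highest for both. Mup20 was not called without library 11 (0.76, adjusted p = 0.162), nor without Semaglutide 31 or saline 35, 50 or 73, and Mup3 was not called without saline 35 or 73 (adjusted p = 0.067 and 0.0581). Mup, Serpina1 and Hsd3b genes have close copies, so reads may have been divided among them.

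Female-biased genes moved the other way, with 3 of 14 tested members lower, none higher and all 14 below 0 (median -1.22). Fmo2, a flavin monooxygenase, was at 7.13, 15.2, 12.6 and 14.8 CPM in Semaglutide and 28.9, 34.8, 40.2 and 28.5 CPM in saline (-1.41 ± 0.26, adjusted p = 0.00396). Cyp17a1, a steroid hydroxylase, was at 18.5, 19.1, 6.29 and 11.5 CPM against 48.2, 30.9, 35.2 and 41.0 CPM (-1.49 ± 0.33, adjusted p = 0.0123), and not called without saline 35 (adjusted p = 0.0508). The growth hormone receptor gene Ghr was at 0.06 ± 0.14 (adjusted p = 0.848) and Igf1, its main secreted target, at -0.04 ± 0.21 (adjusted p = 0.944). Cish and Bcl6, picked after their values were seen, divided the Semaglutide libraries into pairs, and Igf1 did not (514, 555, 565 and 521 CPM). Cish, an early feedback inhibitor of the receptor, was at 2.55 and 3.94 CPM in libraries 11 and 15 and at 25.9 and 30.8 CPM in libraries 31 and 51, and all saline libraries lay between these pairs. Bcl6, a repressor, was at 75.7 and 89.8 CPM in libraries 11 and 15 and at 8.94 and 9.95 CPM in 31 and 51, with saline between 5.82 and 10.5 CPM. Neither gene passed with all libraries in edgeR (Cish 0.31 ± 0.71, adjusted p = 0.854, and Bcl6 2.45 ± 0.67, adjusted p = 0.0526). Bcl6 passed without Semaglutide 31 (adjusted p = 0.0175) or 51 (adjusted p = 0.0245), in DESeq2 (adjusted p = 0.00862) and with a filter of 1 CPM (adjusted p = 0.0469). The libraries with low Cish were those with high Bcl6, and the male-biased genes Hsd3b5 and Slco1a1 were high in all 4. Libraries 11 and 15 were also the one that stood apart and the one with muscle RNA, and the part of either was not tested. Calorie-restricted libraries varied as well, with Cish at 22.0, 14.7, 3.66 and 2.54 CPM and Bcl6 at 6.72, 25.3, 30.0 and 41.1 CPM.

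Metallothioneins, small proteins that bind zinc and other metals and are induced through the metal sensor MTF1, gave the smallest adjusted p of all lists. Mt2 was at 6.23, 3.11, 8.23 and 3.44 CPM in Semaglutide and at 102, 65.3, 118 and 99.8 CPM in saline (-4.20 ± 0.33, adjusted p = 2.38e-06). Mt1 was at 24.4, 16.9, 31.7 and 13.8 CPM against 173, 159, 230 and 185 CPM (-3.11 ± 0.30, adjusted p = 1.37e-05). Every Semaglutide library was below every saline library by several fold, and the order of the Semaglutide libraries was nearly the same for both genes, with library 31 highest. The genes are neighbours on chromosome 8 (Mt2 at 94172664 to 94173568 and Mt1 at 94179082 to 94180327, GRCm38). Their promoters are printed because they are the regions through which both genes respond to metal, from RefSeq (GRCm38.p6, plus strand, 250 bases before to 50 after the start), with the metal response element core in capitals (TGCACNC or TGCGCNC, both strands).
Mt1 promoter, chr8:94178839-94179138: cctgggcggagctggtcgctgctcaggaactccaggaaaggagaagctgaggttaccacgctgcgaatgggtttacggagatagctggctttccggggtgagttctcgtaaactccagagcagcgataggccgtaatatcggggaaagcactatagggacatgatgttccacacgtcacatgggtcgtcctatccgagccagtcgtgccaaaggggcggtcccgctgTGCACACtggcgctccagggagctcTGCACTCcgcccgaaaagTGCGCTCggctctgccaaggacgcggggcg
Mt2 promoter, chr8:94172368-94172667: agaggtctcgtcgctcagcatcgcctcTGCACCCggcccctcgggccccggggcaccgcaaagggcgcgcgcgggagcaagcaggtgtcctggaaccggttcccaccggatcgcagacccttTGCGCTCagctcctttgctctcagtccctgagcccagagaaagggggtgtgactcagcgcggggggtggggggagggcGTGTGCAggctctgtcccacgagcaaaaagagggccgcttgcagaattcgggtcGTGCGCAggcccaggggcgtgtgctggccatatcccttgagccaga
The Mt1 promoter held 3 matches and the Mt2 promoter 4. Among all 32851 RefSeq promoters of the same length, 25.7% held at least 1 match and 1.97% held 3 or more. They were the 2 calls among 9 tested genes of the list, and none rose. Mtf1 was at -0.19 ± 0.20 (adjusted p = 0.635), and Slc30a1, a zinc exporter that MTF1 also induces, was at 30.0, 36.1, 34.3 and 36.3 CPM against 31.5, 30.7, 33.0 and 39.4 CPM (0.02 ± 0.22, adjusted p = 0.968).

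Detoxification genes regulated by the oxidant sensor NRF2 were lower in 6 of 20 tested members and higher in none (median -0.58). The lower count was 5 without Semaglutide 11, 15 or 31 or saline 50 or 73. It was 4 without saline 35 or without libraries 11 and 15 together. In DESeq2, with the length trend removed, or without Semaglutide 51, 1 member was called higher. Gsta1, a glutathione transferase, was at 0.675, 0.207, 0.518 and 0 CPM in Semaglutide and at 9.84, 6.46, 2.59 and 1.49 CPM in saline (-3.88 ± 0.72, adjusted p = 0.00401), and Gsta2 was at 7.65, 3.87, 13.7 and 3.94 CPM against 29.6, 25.0, 32.9 and 28.4 CPM (-1.99 ± 0.33, adjusted p = 0.00177). Gstm2, of another transferase class, was at 31.7, 31.2, 24.1 and 26.4 CPM against 120, 99.3, 103 and 77.7 CPM (-1.82 ± 0.22, adjusted p = 0.000148). Ugdh, which makes the sugar donor for glucuronidation, fell by 1.02 ± 0.18 (adjusted p = 0.00244). These 4 genes showed no overlap between groups. Nqo1, a quinone reductase, fell by 1.07 ± 0.23 (adjusted p = 0.0126) and was not called without Semaglutide 31 or saline 35 (adjusted p = 0.0517 and 0.0639). Gsta1 and Gsta2 are close copies whose reads may have been exchanged.

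Endoplasmic reticulum chaperones, which fold secreted proteins, rose in 5 of 20 tested genes and fell in none (median 0.51). The count was 3 without Semaglutide 11, Semaglutide 51, saline 50 or saline 78, 2 without saline 35 or saline 73, and 7 without Semaglutide 31 (3 without libraries 11 and 15 together). Dnajb11, a cofactor of the chaperone BiP, was at 102, 98.0, 77.2 and 100 CPM in Semaglutide and at 56.8, 57.2, 59.4 and 66.0 CPM in saline (0.66 ± 0.14, adjusted p = 0.00948), and it passed in each of the 8 leave-one-out fits. Manf, a secreted protein of the same response, was at 98.1, 56.1, 69.3 and 104 CPM against 25.9, 35.4, 27.3 and 28.9 CPM (1.48 ± 0.32, adjusted p = 0.0112; adjusted p = 0.0508 without library 11). Hyou1, a large chaperone, was at 70.4, 69.2, 73.6 and 152 CPM against 37.8, 42.9, 29.5 and 41.4 CPM (1.27 ± 0.30, adjusted p = 0.0192), with library 51 apart from its mates, and was not called without Semaglutide 51 or saline 35 or 73 (adjusted p = 0.061 to 0.0764). Hspa5, which encodes BiP, was at 721, 552, 528 and 832 CPM against 346, 403, 323 and 362 CPM (0.88 ± 0.24, adjusted p = 0.0496). Its groups did not overlap, but it lost the call in all 8 leave-one-out fits (adjusted p = 0.0538 to 0.146). Genes of this kind can respond to misfolded protein through the endoplasmic reticulum stress element (CCAAT and CCACG with 9 free bases between them, both strands). It was found in the promoters of 8 of the 18 list genes with a RefSeq promoter, and in 0.119% of all 32851 promoters. The list was chosen by known function, so these shares are no test of the element in these data. The 8 genes were Hspa5, Hsp90b1, Calr, Canx, Pdia6, Syvn1, Dnajc3 and Creld2, and of them only Hspa5 was called. The promoter of Hspa5 is shown with the element in capitals (GRCm38.p6, plus strand).
Hspa5 promoter, chr2:34771840-34772139: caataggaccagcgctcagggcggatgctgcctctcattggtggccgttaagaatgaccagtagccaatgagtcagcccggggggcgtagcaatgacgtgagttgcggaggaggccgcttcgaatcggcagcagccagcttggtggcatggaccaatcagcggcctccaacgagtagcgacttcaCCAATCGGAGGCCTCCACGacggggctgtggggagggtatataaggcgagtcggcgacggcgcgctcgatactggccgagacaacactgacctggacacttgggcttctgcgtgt
The element lay at -65 from the start site in Hspa5. No match was found in the promoters of Dnajb11 or Sec61b, 2 of the genes that were called. The called genes Hyou1 and Manf had no entry among the promoters searched. The call of Sec61b (0.84, adjusted p = 0.0437) was lost without library 11 (0.45, adjusted p = 0.108), which was at least 1 log2 unit above all others for it, and without any 1 of the 4 saline libraries (adjusted p = 0.0726 to 0.151).

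Inflammatory transcripts were lower in part. Among acute phase proteins, which hepatocytes secrete in inflammation, 5 of 20 tested genes fell and none rose (median -0.28), and 6 fell without library 11. Orm2, an orosomucoid, was at 9.83, 4.56, 6.29 and 5.26 CPM in Semaglutide and at 50.1, 37.8, 31.1 and 35.8 CPM in saline (-2.58 ± 0.30, adjusted p = 0.000111). Saa2, a serum amyloid A, was at 18.3, 10.4, 9.40 and 4.45 CPM against 160, 122, 67.7 and 68.2 CPM (-3.30 ± 0.53, adjusted p = 0.00244). Lcn2, lipocalin 2, was at 2.40, 2.97, 3.50 and 1.94 CPM against 49.1, 30.5, 16.9 and 30.0 CPM (-3.55 ± 0.61, adjusted p = 0.0035). Each of these had separate groups, as did Orm3 (-3.27 ± 0.51, adjusted p = 0.00115) and Saa1 (-2.53 ± 0.52, adjusted p = 0.0108). Orm1, the most abundant orosomucoid, was at 651, 376, 314 and 234 CPM against 591, 654, 535 and 831 CPM, and was called without library 11 (-1.08, adjusted p = 0.0144) but not with it (-0.73 ± 0.27, adjusted p = 0.14). With library 11 kept and the length trend removed, Orm1 was called (-0.85, adjusted p = 0.0109). Orm and Saa genes are near-identical copies and their single levels are uncertain.

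Interferon-stimulated genes had 5 of 20 lower and 1 higher (median -0.65), but 2 lower without Semaglutide 11, 15 or 51, 3 without saline 73, 1 without Semaglutide 31, saline 35 or saline 50, and none without libraries 11 and 15 together. Rsad2, an antiviral enzyme also called viperin, passed in each of the 8 leave-one-out fits, at 4.65, 4.07, 4.41 and 5.01 CPM against 16.8, 14.2, 12.6 and 8.77 CPM (-1.53 ± 0.29, adjusted p = 0.00465). For antigen presentation by class II molecules, 1 of 7 genes fell and all 7 were below 0 (median -1.0), with 4 lower without library 11 and 2 without saline 78. Cd74, the chaperone of class II molecules, was at 52.1, 47.6, 31.1 and 42.7 CPM against 129, 82.8, 91.6 and 74.4 CPM (-1.12 ± 0.23, adjusted p = 0.00847). H2-Q1, a class I related gene with many close copies, was among the largest decreases, at 2.93, 2.55, 1.88 and 1.57 CPM against 42.6, 28.6, 28.2 and 11.8 CPM (-3.65 ± 0.44, adjusted p = 0.000131).

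Markers of the other cell types gave few calls. Among 10 tested genes of lipid-associated and monocyte-derived macrophages, Cd9 was called higher and Cx3cr1 lower, and neither without library 11 (adjusted p = 0.0893 and 0.0981). Trac, a T cell receptor chain, was the 1 call among 6 tested T and NK cell genes, and it was lower. None of 9 Kupffer cell genes passed, and their summed level ranged from 88.0 to 311.5 CPM in Semaglutide (highest in library 11) and from 175.8 to 308.2 CPM in saline. Summed levels overlapped likewise for the lipid-associated and monocyte-derived macrophages (81.1 to 238 against 112 to 177 CPM), for stellate cells and matrix (457 to 539 against 400 to 602 CPM) and for sinusoidal endothelium (215 to 329 against 233 to 304 CPM). T and NK cell markers summed to 4.28 to 7.20 CPM in Semaglutide and to 5.06 to 8.88 CPM in saline. The part of cell composition in the class II and interferon values was not tested.

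Several genes with the largest decreases lie outside the lists described above, and Cfd is 1 of the listed adipocyte markers. Cfd, adipsin, a protease of complement known from fat cells, was at 0.075, 0.967, 0 and 0 CPM in Semaglutide and at 12.9, 39.0, 45.4 and 22.2 CPM in saline (-6.83 ± 0.91, adjusted p = 0.000587). Without library 15 its log2 fold change was -9.93. The 7 listed adipocyte markers summed to 13.9 to 19.9 CPM in Semaglutide and 31.5 to 64.7 CPM in saline, and the separation of these sums came from Cfd. Fabp4 was at 14.55, 11.6, 6.22 and 8.89 CPM against 14.7, 16.1, 14.6 and 8.77 CPM, with overlap. Of the markers other than Cfd, Fabp4 (-0.40, adjusted p = 0.451) and Adrb3 (0.81, adjusted p = 0.116, and 0.047 in DESeq2) did not pass in edgeR. Adipoq, Lep, Plin1 and Retn were at 0 or under 1 CPM in all 8 libraries and were not tested. The part of fat cells in the Cfd value was not tested. Themis, a signalling protein best known from thymocytes, was at 0.750, 0.552, 0.518 and 0.250 CPM against 39.5, 42.6, 30.6 and 23.0 CPM (-6.03 ± 0.53, adjusted p = 6.18e-06), above the summed level of all listed T and NK cell markers in the same saline libraries. A4gnt, a glycosyltransferase best known from gastric mucosa, had 1 count in Semaglutide and 139 counts in saline, a ratio of 133 (95% exact interval 23.5 to 5304, counting error only), with 2.64, 3.55, 1.57 and 0.662 CPM in saline. Ttc39a, a gene of unclear function, was at 0.675, 0.483, 0.518 and 0.376 CPM against 11.0, 8.20, 4.36 and 3.80 CPM (-3.73 ± 0.49, adjusted p = 0.000282). In all 4 genes every saline library was above every Semaglutide library, but the rule for naming the largest changes required this. All 4 passed without library 11.

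Among receptors and liver hormones, 3 of 28 tested genes rose and none fell (median 0.07), beside 1.56% and 2.62% of all genes tested. Glp1r, the target of Semaglutide, had no counts among 120.44 M in the 8 libraries, which allows up to 0.0249 CPM, so its transcript was not detectable at this depth. Gcgr, which Semaglutide does not target, was at 305, 228, 207 and 224 CPM in Semaglutide and 213, 218, 231 and 240 CPM in saline (0.10 ± 0.15, adjusted p = 0.778). Lepr, the leptin receptor (chromosome 4, 101717404 to 101815352), was at 8.70, 9.80, 9.53 and 23.4 CPM against 3.04, 3.55, 1.29 and 1.57 CPM (2.42 ± 0.34, adjusted p = 0.000564), with library 51 highest. Enho, the precursor of the secreted peptide adropin, was at 58.4, 34.7, 34.7 and 32.2 CPM against 4.78, 4.54, 6.67 and 10.7 CPM (2.60 ± 0.40, adjusted p = 0.000947), with library 11 highest. Igfbp2, a secreted binding protein of insulin-like growth factors, was at 1492, 936, 1013 and 734 CPM against 152, 227, 358 and 475 CPM (1.79 ± 0.31, adjusted p = 0.00291). For each of the 3 the groups were separate, a condition for naming Lepr and Enho among the largest changes. Their calls held without library 11. The hormone Fgf21 was at 2.55, 1.52, 2.14 and 1.44 CPM against 5.85, 4.36, 3.81 and 0.414 CPM, and was not called (-0.95 ± 0.67, adjusted p = 0.475). Hepcidin (Hamp), the iron hormone, was at 1946, 1228, 1694 and 1355 CPM against 313, 580, 1091 and 890 CPM without overlap, and did not pass (1.11 ± 0.59, adjusted p = 0.33).

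Other genes with large increases were Wnk4, a kinase of salt transport, at 3.98, 6.77, 10.6 and 8.20 CPM against 1.12, 0.989, 0.885 and 0.827 CPM (2.93 ± 0.38, adjusted p = 0.000228), and the vasopressin receptor Avpr1a at 21.8, 26.5, 24.2 and 25.2 CPM against 3.09, 4.59, 5.31 and 6.12 CPM (2.36 ± 0.29, adjusted p = 0.000152). The adhesion molecule Cadm4 rose by 2.15 ± 0.41 (adjusted p = 0.005), and the organic anion transporter family gene Slc22a28 by 2.08 ± 0.45 (adjusted p = 0.0123). Semaglutide and saline libraries did not overlap for any of these 4 genes, but separate groups were a condition for naming them. Among immediate early genes, which respond within minutes to stimuli, 2 of 14 fell and 1 rose (median -0.53), beside 2.62% and 1.56% of all genes tested. The lower count was 4 without saline 78, 3 without Semaglutide 51 and 1 without Semaglutide 15, saline 35 or saline 73, and the higher count was 0 without Semaglutide 51, saline 35, saline 50 or saline 78. Jun was at 5.78, 5.32, 5.77 and 7.14 CPM against 26.1, 17.3, 20.6 and 14.9 CPM (-1.72 ± 0.21, adjusted p = 0.000146), whereas its relative Junb was at 28.6, 24.0, 25.5 and 44.0 CPM against 15.1, 12.4, 25.3 and 11.8 CPM (0.92 ± 0.24, adjusted p = 0.035). The 2 partners of the same transcription factor complex had opposite signs, and the Junb call was lost without Semaglutide 51 or saline 35, 50 or 78 (adjusted p = 0.0915 to 0.127).

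**Figure D3:**
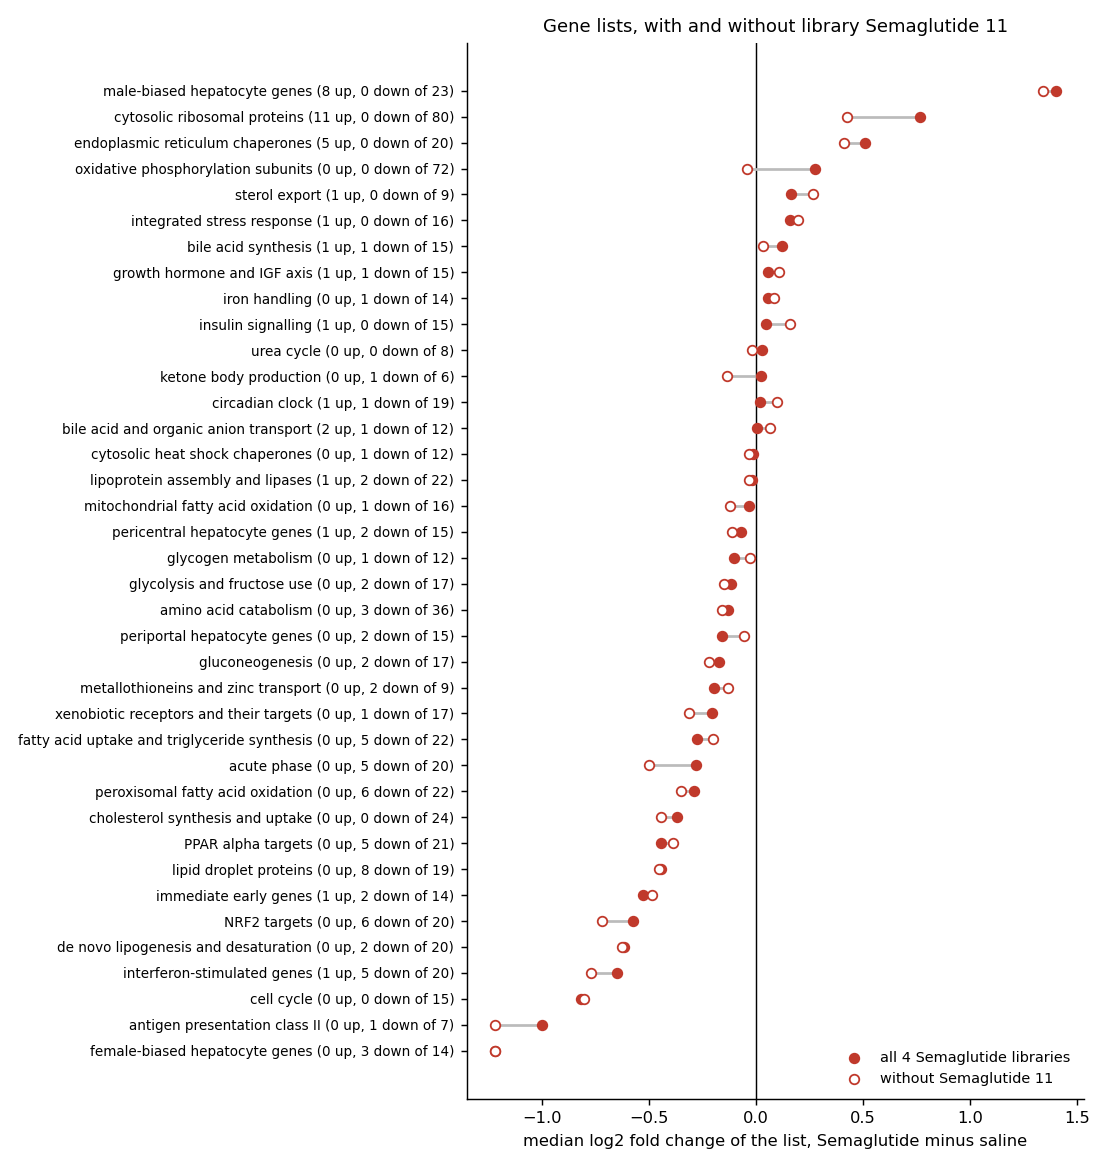
Median log2 fold change (x axis, Semaglutide minus saline) of 38 gene lists (y axis), with all 4 Semaglutide libraries (filled) and without library 11 (open), joined by a line. The number of tested members that passed higher ("up") or lower ("down") stands beside each name. Male-biased genes lie at 1.40 and 1.34, female-biased genes at -1.22 in both fits, and the ribosomal protein and oxidative phosphorylation lists moved most when library 11 was left out.

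Library Semaglutide 11 differed from the other 7 libraries in a way that followed gene length. In it 128 genes were at least 1 log2 unit above, and 221 at least 1 below, all other 7 libraries, compared with 45 and 55 genes in library 15 and at most 19 and 87 in the rest. The Spearman correlation, across 12875 genes, of its log2 deviation from the 8-library mean with exon length was -0.437, and those of the other libraries were between -0.0583 and 0.268 (genes share each library and are not independent). Its median deviation was 0.43 in the shortest 20% of genes (57 to 2369 bases of exon) and -0.34 in the longest 20% (at least 7477 bases). Short transcripts such as Ndufb2 (43.8 CPM, 5.73 to 10.8 CPM in the other 7), Rps18 (837, against 164 to 325 CPM), Atp5e (526, against 101 to 171 CPM), Rpl22l1 (62.8, against 8.91 to 19.6 CPM), Snrpg (49.9, against 10.7 to 18.8 CPM) and Leap2 (179, against 37.6 to 72.3 CPM) lay highest above the rest. Zfp445 (4.05, against 15.9 to 32.9 CPM), Fzd4, Sntb1, Lmbrd2 and C2cd3 were among the lowest. Of the genes at least 1 unit above, 25 were among 80 ribosomal protein genes and 10 among 72 subunits of oxidative phosphorylation.

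All 80 tested ribosomal protein genes were above 0 (median 0.77) and 11 passed, but 1 without library 11 (median 0.43). The count was also 1 without saline 50 or 73, 4 without Semaglutide 31, 23 without Semaglutide 15 and 48 without Semaglutide 51, and it was 0 without saline 35 or without libraries 11 and 15 together. With the length trend removed 62 passed (median 0.70). For oxidative phosphorylation none of 72 passed in edgeR, and 1 passed with the length trend removed. The median of 0.27 became -0.04 without library 11. The lipid droplet, peroxisomal, metallothionein, acute phase and male-biased lists held none of the genes that were at least 1 unit above or below in library 11, apart from Cyp4a12a of the male-biased list, which was below.

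**Figure D4:**
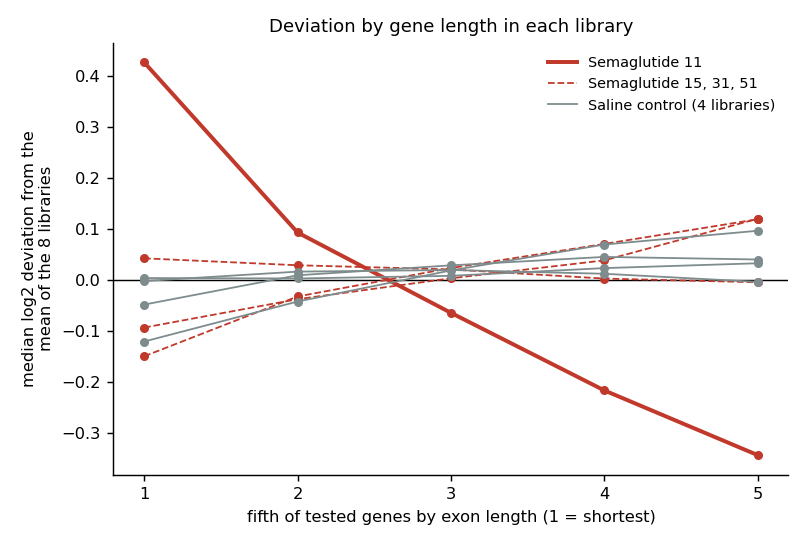
Median log2 deviation of each library from the mean of the 8 libraries (y axis) in 5 equal bins of the tested genes by exon length (x axis, 1 is the shortest). Semaglutide 11 (thick red line) falls from 0.43 to -0.34, and the other 7 libraries stay between -0.15 and 0.12.

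Semaglutide was also compared directly with calorie restriction, the weight-matched group, and 790 of 12910 genes passed (6.12%), 394 higher and 396 lower (without library 11, 503 genes or 3.83%, with 258 or 1.96% higher and 245 or 1.86% lower). The higher and lower counts were 253 and 240 without Semaglutide 31, 202 and 243 without calorie-restricted library 7, and 201 and 259 without library 52, and 259 genes were higher without library 8. Because both treatments share the saline controls, their differences from saline are set side by side and not correlated. Among lipid storage genes, Cidec was at 1.05, 1.22, 3.30 and 1.47 CPM in calorie restriction, and the direct difference from Semaglutide was 0.55 ± 0.55 (adjusted p = 0.572). For Cidea it was -0.96 ± 0.86 (adjusted p = 0.524). With standard errors of this size, equal levels are not shown. Of 19 tested droplet genes 3 were higher and 2 lower in Semaglutide than in calorie restriction, beside 3.05% and 3.07% of all genes tested. Plin3 (1.07 ± 0.15, adjusted p = 0.000356) and Pnpla2 (0.94 ± 0.17, adjusted p = 0.00292) were higher in each of the 8 leave-one-out fits. Lipe was higher by 0.82 ± 0.20 (adjusted p = 0.0205), a call lost without Semaglutide 15 or 31 or calorie-restricted library 7, 8 or 52 (adjusted p = 0.0514 to 0.0634). Plin5 (-1.10 ± 0.32, adjusted p = 0.0476) and Mgll (-0.62 ± 0.17, adjusted p = 0.039) were lower, and neither was called without library 11 (adjusted p = 0.145 and 0.0645). The Plin5 call was lost in all 8 leave-one-out fits (adjusted p = 0.0551 to 0.145). The Mgll call was also lost without any 1 of the other Semaglutide libraries or without calorie-restricted library 7, 8 or 52 (adjusted p = 0.0619 to 0.124). The acute phase, interferon and class II lists had no call between the treatments (medians 0.04, 0.04 and -0.07), and none without library 11.

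Other genes set Semaglutide apart from calorie restriction. G6pc was at 709, 545, 571 and 347 CPM in calorie restriction, and lower in Semaglutide by 2.80 ± 0.28 on the log2 scale (adjusted p = 1.56e-05). Cyp8b1 was at 140, 339, 260 and 505 CPM there, and fell by 2.97 ± 0.50 in Semaglutide relative to it (adjusted p = 0.00233). Agpat2 was also lower in Semaglutide (-1.14 ± 0.13, adjusted p = 3e-05), as was Tat, which begins tyrosine breakdown (-1.37 ± 0.24, adjusted p = 0.00221). Abcg5 was higher in Semaglutide (1.37 ± 0.16, adjusted p = 3.89e-05), with 57.9, 77.4, 63.4 and 61.4 CPM in calorie restriction, and so was its partner Abcg8 (1.52 ± 0.23, adjusted p = 0.000539). Lepr was at 3.21, 2.22, 1.78 and 3.87 CPM in calorie restriction and higher in Semaglutide by 2.22 ± 0.34 (adjusted p = 0.000684). Trib3, a pseudokinase that binds AKT, was at 19.3, 11.3, 11.2 and 11.9 CPM in Semaglutide, 5.85, 5.12, 6.26 and 5.13 CPM in saline and 1.29, 1.53, 2.41 and 4.21 CPM in calorie restriction (2.51 ± 0.31 against calorie restriction, adjusted p = 0.00011). Mup20 was higher by 2.22 ± 0.31 (adjusted p = 0.000308) and Mup11 by 2.56 ± 0.50 (adjusted p = 0.00664). Slco1a1 was at 394, 247, 198 and 216 CPM in calorie restriction, and the direct difference did not pass with all 16 libraries in edgeR (1.05 ± 0.36, adjusted p = 0.0951). It was called by DESeq2 (adjusted p = 0.0393) and with the 2 groups fitted alone (adjusted p = 0.0191). Apart from those of Slco1a1, all the calls in this paragraph held in each of the 8 leave-one-out fits.

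Metallothioneins were lower still in calorie restriction. Mt1 was at 1.81, 4.43, 6.33 and 4.68 CPM in calorie restriction, and Semaglutide was higher by 2.33 ± 0.31 (adjusted p = 0.000182). Mt2 was at 0.701, 2.29, 2.30 and 0.868 CPM there, with Semaglutide higher by 1.77 ± 0.36 (adjusted p = 0.00664). Of 23 male-biased genes, 10 were higher and 1 lower in Semaglutide than in calorie restriction (median 1.54; 7 and 0 without library 11). Of 24 cholesterol synthesis and uptake genes, 5 were lower and none higher (median -1.06; 4 lower without library 11). Of 20 endoplasmic reticulum chaperone genes, 1 was higher and 1 lower in Semaglutide than in calorie restriction (median -0.35). Their summed level was 4286 to 5838 CPM in Semaglutide, 3583 to 4002 CPM in saline and 5768 to 7536 CPM in calorie restriction. Dnajb11 was the lower gene (-0.59 ± 0.14, adjusted p = 0.0152), a call lost without Semaglutide 31 or calorie-restricted library 52 (adjusted p = 0.0594 and 0.0581). Clock genes differed as well: 7 of 19 were higher and 5 lower in Semaglutide than in calorie restriction (beside 3.05% and 3.07% of all genes tested, and the same counts without library 11), against 1 higher and 1 lower relative to saline. Nr1d1, a clock repressor, was at 40.6, 67.5, 57.0 and 114 CPM in Semaglutide, 34.0, 25.7, 38.7 and 31.1 CPM in saline and 6.60, 7.33, 8.38 and 7.01 CPM in calorie restriction (3.25 ± 0.26 against calorie restriction, adjusted p = 5.91e-07, and 1.11 ± 0.23 against saline, adjusted p = 0.00949). Dbp, a clock output factor, was at 119, 148, 139 and 134 CPM in Semaglutide and 11.6, 15.2, 9.16 and 3.54 CPM in calorie restriction (3.78 ± 0.38, adjusted p = 1.96e-05), and 0.42 ± 0.34 against saline (adjusted p = 0.533). Arntl, the activator that peaks opposite to them, was at 0.225, 0.414, 0.518 and 2.57 CPM in Semaglutide and 18.3, 13.1, 25.8 and 33.8 CPM in calorie restriction (-4.56 ± 0.58, adjusted p = 0.000167). Rgs16, a regulator of G protein signalling with a daily rhythm in liver, led the genes that were higher in Semaglutide than in calorie restriction, at 353, 374, 195 and 286 CPM against 2.16, 6.87, 4.87 and 11.9 CPM (5.56 ± 0.43, adjusted p = 5.91e-07). The time of day at which livers were taken is not given in the sources used here, and its part in the differences from calorie restriction cannot be told apart from treatment.

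**Figure D5:**
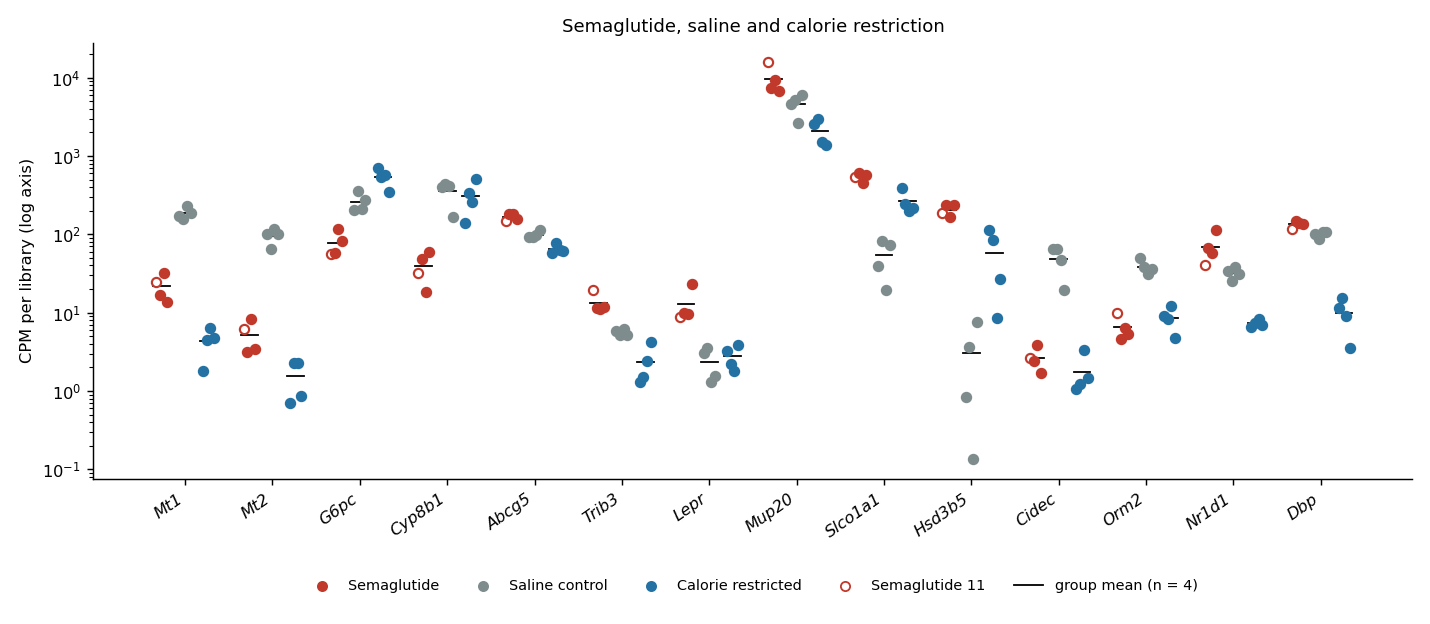
CPM per library on a log axis for 14 genes in Semaglutide (red, open circle for library 11), saline (grey) and calorie restriction (blue), with a bar at the mean of 4 libraries. Mt1 and Mt2 are ordered saline, Semaglutide, calorie restriction, G6pc has its lowest mean in Semaglutide and its highest in calorie restriction, and Nr1d1 and Dbp are low in calorie restriction alone.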

How the data were processed

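Poly(A) RNA from flash-frozen liver was sequenced as directional libraries, per the labels' protocols. The authors deposited unnormalized counts of reads for each gene. Reads were aligned to mm10 with TopHat2 2.1.1 and counted with featureCounts, per the submitters' processing notes. Counting options and strand setting are not given in the sources used here, so overlapping, antisense and near-identical genes are uncertain. Of 46078 genes in the deposited table, 22577 had no count in any of the libraries.

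Groups were taken from the treatment labels. edgeR 4.0.16 (R 4.3.3) was fitted to all 16 libraries, whose 4 groups share 1 estimate of spread (biological coefficient of variation 0.24), with TMM scaling, filterByExpr (12910 genes kept), the robust quasi-likelihood test and a Benjamini-Hochberg adjusted p of 0.05. Standard errors were the log2 fold change divided by the square root of F. No batch is given in the labels. Alternatives were other scalings, filters, DESeq2 1.42.0, limma 3.58.1 (voom), a fit of the 2 groups alone, removal of the gene length trend with exon lengths from GENCODE M21 (known for 99.73% of genes tested), leaving out each library, and, added after the data were seen, leaving out libraries 11 and 15 together. Scripts were tested on simulated counts. Promoter sequences were from RefSeq.

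The members and gene lists were chosen with earlier results of these data known. Named genes were the 10 largest changes in each direction among called genes whose higher group averaged 2 CPM or more and whose groups were separate, leaving out predicted genes, pseudogenes and antigen receptors, up to 4 genes per list by smallest p, a panel of receptors and hormones, the largest differences from calorie restriction by the same criteria, and the 6 genes farthest above and below in library 11. Not every gene the rule yields is described, and some are not reported here. Intervals and limits from counts cover counting error only.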

Additional observations from a re-analysis of the deposited data

Results flagged for a closer look

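Among 231 groups of 4 libraries (the genes named above in each treatment group), 30 held 1 library whose gap to the nearest other exceeded Dixon's 95% limit for its group's range. Chance gives about 1 in 20 for groups not picked by their values. Library Semaglutide 11 accounted for 13 of the 30, Semaglutide 15 for 7, Semaglutide 51 for 4, and Semaglutide 31 and saline 78 for 3 each. Some genes were named because library 11 stood apart in them, and the muscle genes because library 15 did. The total and the lead of library 11 therefore cannot be set against that rate.

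Library Semaglutide 11 was apart from its mates with lower levels of Lipe (7.43 CPM), Pnpla2 (57.5 CPM) and C2cd3 (1.57 CPM). It was apart with higher levels of Mup3 (23909 CPM), Sec61b (143.8 CPM), Trib3 (19.3 CPM), Enho (58.4 CPM), Ndufb2 (43.8 CPM), Rpl22l1 (62.8 CPM), Atp5e (525.9 CPM), Snrpg (49.9 CPM), Rps18 (837.1 CPM) and Leap2 (179.4 CPM). Library Semaglutide 15 was apart in the muscle genes Acta1 (229.3 CPM), Tnnt3 (197.2 CPM) and Ckm (77.6 CPM), and in Lpl (84.3 CPM), Pdk4 (10.6 CPM), Fads1 (610.4 CPM) and Cfd (0.967 CPM).

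Library Semaglutide 31 was apart in Dnajb11 (77.2 CPM), Slc22a28 (7.00 CPM) and A4gnt (0.0648 CPM, a single count). Library Semaglutide 51 was apart in Hyou1 (151.9 CPM), Arntl (2.57 CPM), Lepr (23.4 CPM) and Mgll (223.5 CPM). Saline 78 was apart in Cyp8b1 (168.8 CPM), Abcg8 (138.5 CPM) and Adipoq (0.579 CPM).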

How the results depend on the processing

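No named gene that passed changed sign under any of these alternatives, but values that did not pass did, among them Lpl (-0.51 without library 15), Leap2 (-0.20) and Gcgr (-0.04) without library 11, Cish (-0.23 without Semaglutide 51), Ppara (0.07 without library 11) and Pck1 (0.03 without saline 73). Relative to saline, DESeq2's Wald test called 472 genes higher and 510 lower, removal of the length trend called 475 higher, and leaving out libraries 11 and 15 together called 75 higher and 140 lower. Leaving out 1 library gave 74 to 252 higher and 182 to 324 lower genes. Relative to calorie restriction, the Wald test called 666 higher and 625 lower, leaving out libraries 11 and 15 together 145 higher and 135 lower, and leaving out 1 library 201 to 527 higher and 240 to 436 lower. With the length trend removed, 68 genes of library 11 were at least 1 log2 unit above and 121 below the other 7, in place of 128 and 221. The causes of these moves were not tested. Scaling by DESeq2 size factors or upper quartiles, other filters and limma-voom kept the counts of calls within 1.5 times. Among the named results, leaving out 1 library ended a call in 130 cases and added one in 24, with 1654 unchanged. No paired analysis was possible because the groups compared share fewer than 2 numbers. With 12.144 to 16.361 M counts per library and 4 libraries a group, genes under about 1 CPM rest on few reads.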
